A study of Mus musculus with 8 samples.

Results

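The Ifi200 genes are a cluster of interferon-inducible genes on mouse chromosome 1, and many of their proteins bind DNA. Members were the 10 gene features of the expression table with the symbols Ifi202b, Ifi203, Ifi204, Ifi205, Ifi207, Ifi208, Ifi209, Ifi211, Ifi213 and Mndal, out of 55558 Ensembl gene features. The set was selected on values of the same comparison between the lines that is described here, so the members' levels and fold changes are given as a description and no p-value of a member is given. All 10 members passed the filter on low counts.

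The lines compared, mK3 and mK4, are mouse kidney cells derived from the metanephric mesenchyme, the embryonic tissue from which nephrons form. RNA was sequenced from 3 libraries of mK3, labelled as uninduced cells, and 3 libraries of mK4, labelled as differentiated to epithelium. Open chromatin was profiled in 1 library per line by ATAC-seq, in which a transposase cuts accessible DNA. Both lines were labelled wild type (wt), were untreated and were grown in the same DMEM medium with fetal bovine serum. The labels give neither the mouse strain of a line nor how it was immortalised. Whether the 3 libraries per line are separate cultures is not labelled either. Each p-value thus sets the difference between the lines against only the spread of these libraries within a line, and that spread may be technical.

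Most Ifi200 proteins carry 1 or more HIN domains, which bind double-stranded DNA. Most carry a pyrin domain, through which they assemble with other proteins. Interferon raises the transcription of many of them. AIM2, a relative encoded beside the cluster, builds an inflammasome that activates caspase-1 when it meets DNA in the cytosol, and p202, the product of Ifi202b, lacks a pyrin domain and blocks AIM2. The level of Ifi202b is known to differ between inbred mouse strains.

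The RNA libraries held 137559391 to 152952351 counts. Levels are given in CPM, gene counts scaled to a common library size after TMM normalization. Within a line, the correlation of log2(CPM + 1) over the genes tested was 0.985 to 0.988, and between lines it was 0.886 to 0.892. Of 13 markers of metanephric mesenchyme and early nephron, 10 could be tested. Of these, 8 were higher and 2 lower in mK4, where 20.8% and 19.5% of all genes tested were called. The 13 markers summed to 194 to 197 CPM in mK3 and 2163 to 2204 CPM in mK4. Most of that came from 1 gene in each line, Vim at 172 ± 1.28 CPM in mK3 and Cdh6 at 1668 ± 50.5 CPM in mK4 (SD, n = 3). The mesenchyme gene Pax2 was at 0 in every mK3 library and at 30.0 ± 4.11 CPM in mK4 (SD, n = 3). The epithelial marker Cdh1 had 0 counts in every mK3 library and 59, 0 and 59 in mK4, and Epcam had 90 counts in 1 mK3 library and 0 elsewhere. Neither these 2 nor Wt1 could be tested. The 2 lower markers were Osr1 and Six2. Osr1 fell from 11.2 ± 0.779 to 2.25 ± 0.235 CPM (adjusted p = 0.000131, edgeR's quasi-likelihood test). Six2 had 59, 15 and 61 counts in mK3 and 0 in every mK4 library (adjusted p = 0.00921, a call lost with the replicate block). Cdh6, Pax8 and Lhx1 were among the 8 higher markers. The cadherin gene Cdh6 was at 0 in every mK3 library, Pax8 rose from 0.616 ± 0.131 to 39.4 ± 3.91 CPM (adjusted p = 1.72e-05, edgeR's quasi-likelihood test), and Lhx1 rose from 0.00756 ± 0.0131 to 0.569 ± 0.207 CPM (adjusted p = 0.0112). As RNA came from whole cultures, fewer cells expressing a gene and less RNA per cell cannot be told apart.

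The members lie in 1 interval of 465 kb, chr1:173566280-174031755 (mm10, GRCm38.p6). RefSeq promoter sequences for that assembly matched 9 of 10 members, with no entry for Ifi204. They come from the reference genome and not from these lines. The 250 bases before the annotated start are printed below for 8 start sites, 5′ to 3′ on the gene's strand, so that they can be compared. Some pairs of these windows are near copies and others are not. Capitals mark matches to the core of the interferon-stimulated response element, ISRE, searched as GAAANNGAAA on both strands. In Ifi202b, capitals mark a match to the interferon-gamma activated site, GAS, searched as TTCNNNGAA on both strands. Mndal and Ifi203 each have a pair of annotated starts, numbered 1 and 2.
Ifi208: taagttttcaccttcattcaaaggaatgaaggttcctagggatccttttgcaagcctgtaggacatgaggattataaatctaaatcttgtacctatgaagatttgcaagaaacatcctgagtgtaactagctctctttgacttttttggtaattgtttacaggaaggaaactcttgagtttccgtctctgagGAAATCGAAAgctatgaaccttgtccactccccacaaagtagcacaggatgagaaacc
Ifi213: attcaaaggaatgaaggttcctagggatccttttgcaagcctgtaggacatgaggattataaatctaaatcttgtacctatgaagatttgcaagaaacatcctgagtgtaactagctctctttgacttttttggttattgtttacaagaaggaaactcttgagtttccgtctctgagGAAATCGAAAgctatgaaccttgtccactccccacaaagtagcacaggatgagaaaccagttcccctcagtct
Ifi207: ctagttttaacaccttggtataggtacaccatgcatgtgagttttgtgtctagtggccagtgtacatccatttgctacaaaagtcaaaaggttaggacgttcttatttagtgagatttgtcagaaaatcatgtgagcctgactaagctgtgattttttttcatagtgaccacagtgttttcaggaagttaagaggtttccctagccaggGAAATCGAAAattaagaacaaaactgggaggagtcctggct
Ifi211: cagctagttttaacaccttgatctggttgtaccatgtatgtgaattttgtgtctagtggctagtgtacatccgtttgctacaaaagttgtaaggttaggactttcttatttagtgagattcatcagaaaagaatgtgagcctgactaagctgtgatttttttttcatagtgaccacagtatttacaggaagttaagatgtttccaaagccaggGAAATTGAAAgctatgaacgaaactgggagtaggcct
Mndal start 1: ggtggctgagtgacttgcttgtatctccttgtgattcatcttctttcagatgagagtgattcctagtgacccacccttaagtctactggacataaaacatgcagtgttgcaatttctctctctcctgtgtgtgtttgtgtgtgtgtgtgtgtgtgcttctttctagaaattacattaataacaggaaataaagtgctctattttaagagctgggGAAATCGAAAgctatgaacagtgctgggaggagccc
Ifi203 start 2: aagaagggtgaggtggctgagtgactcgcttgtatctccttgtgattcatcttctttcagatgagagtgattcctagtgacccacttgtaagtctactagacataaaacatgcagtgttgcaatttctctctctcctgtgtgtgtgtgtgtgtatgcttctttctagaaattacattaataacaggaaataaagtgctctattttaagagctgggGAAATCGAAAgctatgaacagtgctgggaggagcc
Ifi205: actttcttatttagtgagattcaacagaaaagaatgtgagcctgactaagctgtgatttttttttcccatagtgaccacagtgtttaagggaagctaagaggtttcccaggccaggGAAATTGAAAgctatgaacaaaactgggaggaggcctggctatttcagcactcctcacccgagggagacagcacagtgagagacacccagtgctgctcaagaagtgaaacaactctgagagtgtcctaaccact
Ifi202b: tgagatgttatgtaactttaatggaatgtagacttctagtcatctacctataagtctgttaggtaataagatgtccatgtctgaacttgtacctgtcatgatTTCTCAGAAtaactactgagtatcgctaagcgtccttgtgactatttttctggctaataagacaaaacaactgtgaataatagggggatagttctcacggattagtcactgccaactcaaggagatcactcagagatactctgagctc
The windows are at chr1:173673415-173673664 on the plus strand for Ifi208 and, on the minus strand, at chr1:173599273-173599522 for Ifi213, chr1:173741810-173742059 for Ifi207, chr1:173913047-173913296 for Ifi211, chr1:173880188-173880437 for Mndal, chr1:173942493-173942742 for Ifi203, chr1:174031756-174032005 for Ifi205 and chr1:173982845-173983094 for Ifi202b.

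An ISRE core stood in the 250 bases before a start of 7 of 9 members, against 3.46% of 27025 genes with such a window. The exact letters GAAATCGAAA occurred in Ifi213, Ifi208, Ifi207, Mndal start 1 and Ifi203 start 2, at distances from 73 to 26 bases before the start. Ifi211 and Ifi205 held GAAATTGAAA, 37 to 28 and 134 to 125 bases before their starts. The windows of Ifi202b, Ifi209 and Ifi203 start 1 held no ISRE core. The window of Ifi202b held the only GAS match among the 9 members, TTCTCAGAA, 148 to 140 bases before the start, and 8.13% of genes had such a match. A match is a description of letters and not a binding site.

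Some of these promoters were near copies of each other. Among 91 pairs of the 14 windows of members and of the neighbouring relatives Aim2, Ifi206 and Ifi214, 6 pairs were over 80% identical and the others lay between 53.6% and 68.8%, with a median of 60%. Identity is the number of identical bases out of 250, so a shift between annotated starts lowers it. By this measure the closest pairs were Ifi214 with Ifi209 at 94.8%, Ifi213 with Ifi208 at 93.2% and Mndal start 1 with Ifi203 start 2 at 93.2%. Over aligned bases alone the order differs, with 231 of 232 identical for Ifi206 with Ifi208 and 233 of 235 for Ifi213 with Ifi208. For Ifi214 with Ifi209 it was 237 of 249. Some pairs below 80% were also alike where they aligned. Ifi211 with Ifi205, at 56.4% of 250, had 141 of 151 aligned bases identical. Ifi207 with Ifi205, at 54.8%, had 137 of 154. A low percentage of 250 thus does not show that a pair is unlike. Ifi209 differed from Ifi214 within the 10 bases of the ISRE core by G1T, with positions counted from 1 at the 5′ end of the match and the base of Ifi214 given first.
Ifi214: GAAATCGAAA
Ifi209: TAAATCGAAA
The members' transcripts also resemble each other, and no source used here says how reads mapping to several genes were counted, so the split of counts between near-identical members is uncertain.

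**Figure D1:**
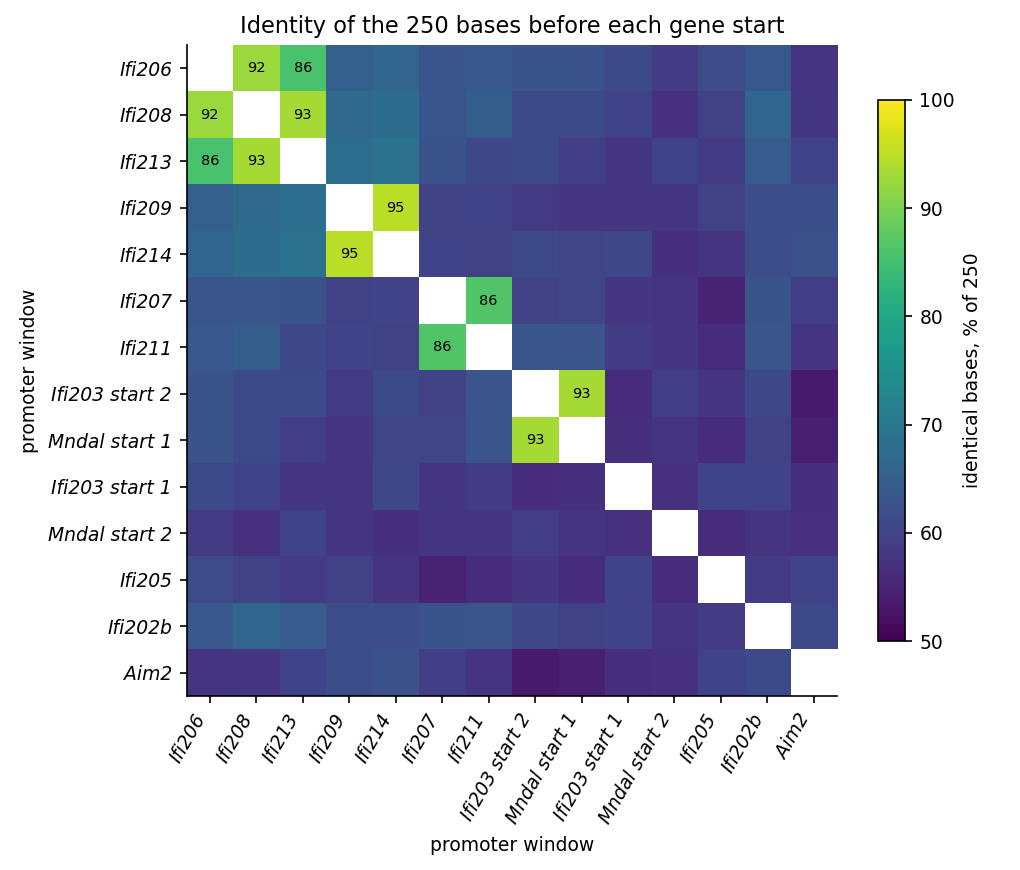
Percent identity over the 250 bases before each annotated start, for every pair of the 14 windows of Ifi200 members and their neighbours (colour scale, percent). Windows are ordered with similar ones side by side and not by position on the chromosome. The 6 pairs over 80% run from 85.6% to 94.8%, and the other pairs stay at or below 68.8%. A shift between annotated starts lowers the percentage, so pairs such as Ifi211 with Ifi205 can be alike where they align.

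Summed over the 10 members, the family stood at 643, 693 and 675 CPM in the mK3 libraries and at 193, 178 and 162 CPM in the mK4 libraries. The means were 671 ± 25.3 and 178 ± 15.6 CPM (SD, n = 3), 3.78-fold higher in mK3, and the libraries of the lines did not overlap. Ifi202b made up 44.8%, 47.5% and 50.2% of the family's counts in mK3 and 0.365%, 0.177% and 0.396% in mK4. Without Ifi202b the sums were 352 ± 14 CPM in mK3 and 177 ± 15.6 CPM in mK4, a 1.99-fold difference. In mK4 the largest share of the counts was that of Ifi204, 49.9%, 51.7% and 47.7%, against 27.9%, 29.1% and 25.2% in mK3. These are shares of reads, which also depend on transcript length.

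**Figure D2:**
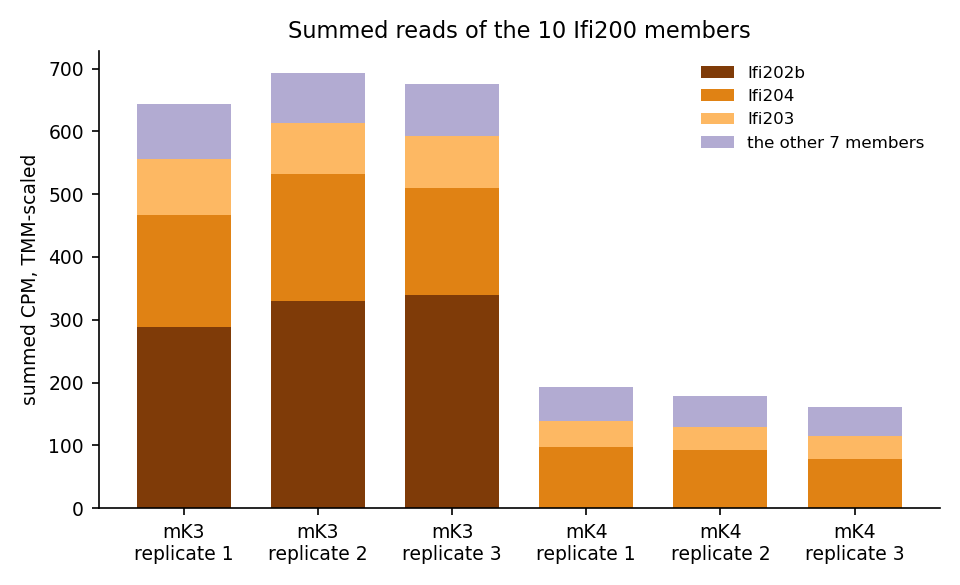
Summed CPM of the 10 members in each of the 6 libraries, split into Ifi202b, Ifi204, Ifi203 and the other 7 members (stacked bars from 0, in CPM). The mK3 bars reach 643 to 693 CPM and the mK4 bars 162 to 193 CPM, and the Ifi202b segment fills 44.8% to 50.2% of the counts in mK3 and at most 0.396% in mK4.

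As a description, the number of members past the threshold used for all genes, a Benjamini-Hochberg adjusted p under 0.05 from edgeR's quasi-likelihood test, was 6 lower in mK4 and 1 higher out of 10. Over all 20405 genes tested, 19.5% were called lower and 20.8% higher. The libraries of the lines did not overlap for 7 members lower in mK4 and 1 higher, where 27.2% and 28.8% of all genes tested showed this. The median log2 fold change was -1.09 over the members and 0.02 over all genes tested. As the set was chosen from this comparison, these counts are no test of the members and nothing is read from them.

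**Figure D3:**
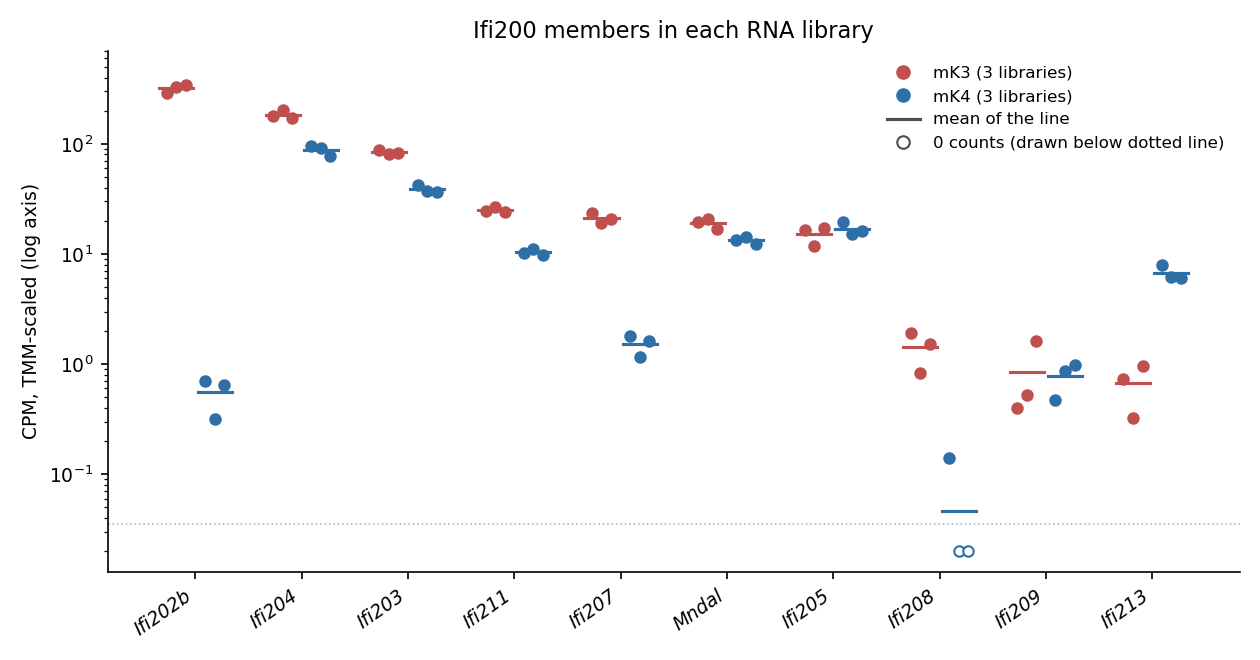
CPM of each of the 10 members in every library, with the line mean as a horizontal mark (log axis; points are single libraries, and open points below the dotted line are libraries at 0). Ifi202b has the widest gap between the lines, Ifi213 is the member whose mK4 libraries all lie above its mK3 libraries, and the libraries of Ifi205 and Ifi209 overlap.

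Ifi202b (ENSMUSG00000026535, chr1:173962569-173982844, minus strand) had the largest difference among the members. Its mK3 libraries held 41403, 43636 and 42056 counts, or 288, 330 and 339 CPM. Its mK4 libraries held 96, 48 and 96 counts, or 0.703, 0.315 and 0.640 CPM. Every mK3 library was thus high, and every mK4 library was low but not at 0. The means were 319 ± 27.0 and 0.553 ± 0.208 CPM (SD, n = 3), 577-fold higher in mK3, with a fitted log2 fold change of -9.17 (SE 0.36).

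Ifi204 and Ifi203, which encode p204 and p203 with both pyrin and HIN domains, were lower in mK4 by about the same factor. Ifi204 (ENSMUSG00000073489, chr1:173747293-173767069) encodes a DNA sensor that signals through STING and is a mouse relative of human IFI16. Its mK3 libraries held 25775, 26749 and 21115 counts and its mK4 libraries 13129, 14040 and 11562, or 184 ± 16.5 and 88.5 ± 10.1 CPM (SD, n = 3), a log2 fold change of -1.06 (SE 0.11) and a 2.08-fold difference of means. Ifi203 (ENSMUSG00000039997, chr1:173920400-173942866) had 88.3, 81.6 and 83.3 CPM in mK3 and 42.6, 37.0 and 36.8 CPM in mK4. Its log2 fold change was -1.12 (SE 0.09), and for neither gene did the lines overlap.

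Ifi211 and Ifi207 also stood lower in mK4, but by unlike amounts. Their promoter windows were 86.4% identical, and a link between promoter likeness and RNA level was not tested. Ifi211 (ENSMUSG00000026536, chr1:173896339-173913087) had 24.7, 26.9 and 24.1 CPM in mK3 and 10.1, 11.2 and 9.83 CPM in mK4, a log2 fold change of -1.28 (SE 0.11). Ifi207 (ENSMUSG00000073490, chr1:173723424-173741831), whose product is reported to stabilise STING, had 23.5, 19.0 and 20.8 CPM in mK3. In mK4 it had 1.79, 1.16 and 1.63 CPM, from 244, 176 and 245 counts, which gave a log2 fold change of -3.79 (SE 0.22) and a 13.8-fold difference of means. The lines did not overlap for either gene, and the difference between the 2 fold changes was not tested.

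Mndal, which encodes a nuclear protein that slows cell growth, differed least among the members whose libraries did not overlap between the lines. Mndal (ENSMUSG00000090272, chr1:173857215-173880382) had 19.7, 20.6 and 17.0 CPM in mK3 and 13.4, 14.4 and 12.2 CPM in mK4. The log2 fold change was -0.52 (SE 0.13), and it ran from -0.60 to -0.41 over the alternatives.

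Ifi208 (ENSMUSG00000066677, chr1:173673628-173698393, plus strand) was near the limit of detection in mK4. In mK3 it had 274, 110 and 189 counts, or 1.91, 0.831 and 1.52 CPM, and 19, 0 and 0 counts in mK4. The means were 1.42 ± 0.545 and 0.0464 ± 0.0804 CPM (SD, n = 3). The lines did not overlap, but the size of the difference was poorly fixed. The fitted log2 fold change was -4.93 (SE 1.67), ran from -10.64 to -4.34 over the alternatives and was -10.64 without mK4 replicate 1, the only mK4 library with counts for the gene.

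Ifi213 (ENSMUSG00000073491, chr1:173566280-173599348, minus strand) was the member with a higher level in mK4. The mK3 counts were 106, 43 and 120 and the mK4 counts 1092, 937 and 914, or 0.738, 0.325 and 0.966 CPM against 8.0, 6.15 and 6.09 CPM. All mK4 libraries were above all mK3 libraries, and the means differed 9.98-fold, with a log2 fold change of 3.32 (SE 0.44). Ifi208, whose promoter window was 93.2% identical to that of Ifi213, stood on the other side, with counts in every mK3 library and in 1 of 3 mK4 libraries.

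Ifi205 and Ifi209 overlapped between the lines. Ifi205 (ENSMUSG00000054203, chr1:174011998-174031755), which encodes p205, had 16.6, 11.8 and 17.1 CPM in mK3 and 19.5, 15.1 and 16.3 CPM in mK4, a log2 fold change of 0.16 (SE 0.19). Ifi209 (ENSMUSG00000043263, chr1:173630859-173647928) measured 0.397, 0.529 and 1.63 CPM in the mK3 libraries, against 0.469, 0.874 and 0.973 CPM for mK4. Its mK3 replicate 3 was high among the mK3 libraries, and the log2 fold change of -0.14 (SE 0.64) became 0.74 without that library. Replicate spread was wide where counts were low, with a coefficient of variation of 79.4% for Ifi209 in mK3, where counting error alone gives 9.55%, and of 4.13% for Ifi203 in mK3.

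The family members nearest to the set moved in both directions. Aim2 rose from 4.35, 3.66 and 4.11 CPM in mK3 to 103, 76.9 and 95 CPM in mK4 (log2 fold change 4.5, SE 0.15, adjusted p = 1.6e-05), 22.7-fold between means. Its libraries of the lines were far apart, opposite in direction to Ifi202b. A link between the RNA levels of Aim2 and Ifi202b was not tested. Ifi206, a family gene outside the set, fell from 5.62 ± 1.75 to 1.24 ± 0.212 CPM (SD, n = 3), with an adjusted p of 0.00198 from edgeR's quasi-likelihood test. The pseudogene Ifi203-ps fell from 7.28 ± 0.912 to 3.48 ± 1.18 CPM with an adjusted p of 0.0303, from 0.00306 to 0.0934 over the alternatives. That call was lost in 6 of 12 alternatives, among them the fits without any 1 of the mK3 libraries or without mK4 replicate 3. Ifi214 was at 0.587 ± 0.197 and 0.239 ± 0.212 CPM and was not called.

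The flanks of the cluster were mostly silent in both lines. Within 500 kb of the interval, RefSeq lists 43 other genes, 40 of them in the table, and 29 of these were at 0 in all 6 libraries. The 25 olfactory receptor rows never exceeded 2 counts. Outside the family, Fmn2 and the predicted gene Gm18445 were among the genes that reached 100 counts in a library. Fmn2, an actin nucleator, had 0.419 ± 0.377 and 2.73 ± 0.183 CPM and was not called, and Gm18445 had its 121 counts in 1 mK3 library.

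**Figure D4:**
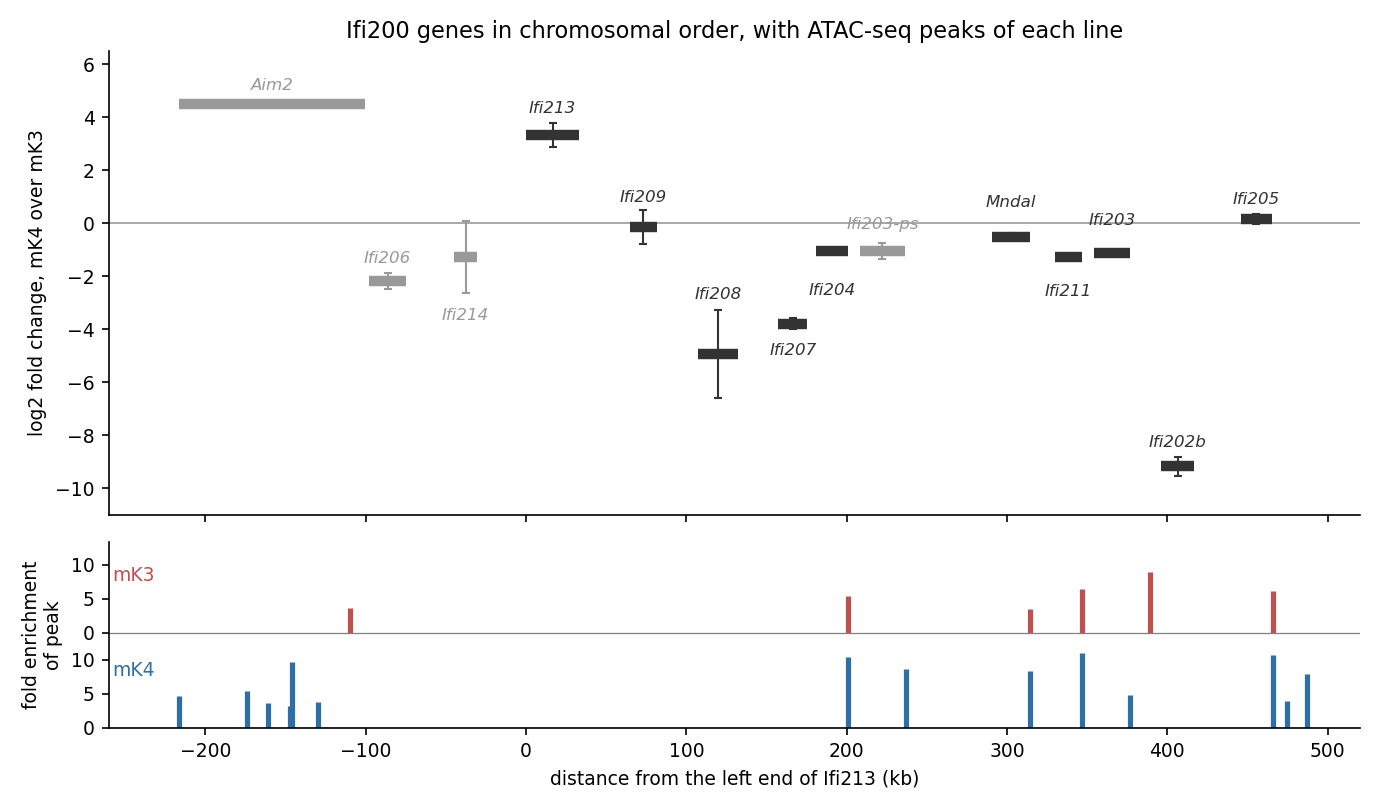
Map of the cluster by distance in kb from the start of the member interval. Bars in the upper panel are RefSeq gene spans at the gene's log2 fold change, mK4 minus mK3 (error bars, SE; members in black, other family genes in grey), and the lower panel shows each deposited ATAC peak at its summit by the authors' fold enrichment, mK3 above mK4. Members with negative and positive values lie side by side, and the peaks cluster in the right-hand part of the interval.

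The deposited lists hold 22516 ATAC peaks for mK3 and 34756 for mK4, few of them in the cluster. The lists were called separately from 1 library each, so the authors' fold enrichments describe peaks within a list and no change between lines is read from them. The member interval held 4 peaks in mK3 and 5 in mK4, and 3 of the mK3 peaks overlapped an mK4 peak. These shared peaks lay at the right-hand end of Ifi204 (chr1:173766931-173767500 in mK3, fold enrichment 5.42, and 10.4 in mK4), at the promoter of Mndal (chr1:173880312-173880511 in mK3, 3.51, and 8.36 in mK4) and at that of Ifi211 (chr1:173912939-173913932 in mK3, 6.44, and 11.0 in mK4). The promoter of Ifi205, just past the interval, held a peak in both lists, 6.15 in mK3 and 10.7 in mK4. The promoter of Ifi203 held a peak in the mK4 list alone (chr1:173942443-173942931, 4.90), while its RNA was lower in mK4.

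Ifi202b had no peak in its promoter or gene span in either list. The nearest summit to its start was 27596 bp away in mK3, in a peak listed in mK3 alone at chr1:173955068-173955432 with a fold enrichment of 8.93 and a -log10 q of 35.4. That peak lies between Ifi203, 12.2 kb away, and Ifi202b, 7.14 kb from its near end. The promoters of Ifi207, Ifi208, Ifi209 and Ifi213 held no peak in either list. Promoter peaks were thus listed for 3 of 9 members in mK3 (33.3%) and 4 of 9 in mK4 (44.4%). Of all 27025 genes with a promoter window the shares were 28.2% and 31.4%. Of the 11904 of these genes that were also tested for expression, they were 58.4% and 64.4%. Aim2 held a peak at its promoter in the mK4 list (chr1:173420304-173420667, fold enrichment 9.66) and none there in the mK3 list. The ISRE cores of Ifi211 and Ifi205 lay inside peaks in both lists and that of Ifi203 start 2 inside the mK4 peak, while those of Ifi213, Ifi208, Ifi207 and Mndal lay outside.

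Genes that act with the Ifi200 proteins in DNA sensing were called in both directions. Of 29 listed genes, Il1b and Tlr9 were at 0 in every library, and of the 27 tested 8 were higher and 9 lower in mK4, where 20.8% and 19.5% of all genes tested were called. The list had a median log2 fold change of -0.16 against 0.02 over all genes. Casp1, the protease that inflammasomes activate, rose from 0.352 ± 0.0782 to 5.62 ± 1.06 CPM (adjusted p = 0.00016, edgeR's quasi-likelihood test, n = 3). Pycard, the adaptor between AIM2 and caspase-1, was at 0.0798 ± 0.0545 and 0.144 ± 0.0672 CPM and was not called. Cgas, the cytosolic DNA sensor that makes cyclic GMP-AMP, fell from 21.0 ± 0.835 CPM to 0.0810 ± 0.140 CPM, with counts in 1 of 3 mK4 libraries (adjusted p = 0.00464). Sting1, its downstream adaptor, listed as Tmem173, rose from 12.6 ± 2.5 to 22.5 ± 3.00 CPM (adjusted p = 0.0122), and the adjusted p was 0.0505 without mK3 replicate 2.

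Other genes of that list stood on both sides. Tbk1, the kinase downstream of STING, fell from 112 ± 10.5 to 59.3 ± 0.537 CPM (adjusted p = 0.000451), and Zbp1, a sensor of Z-form nucleic acids, from 18.3 ± 1.68 to 5.49 ± 0.257 CPM (adjusted p = 0.000166). Unc93b1, which escorts endosomal Toll-like receptors, went from 8.99 ± 1.67 CPM to 0 in all mK4 libraries, at least 409-fold lower against a floor of 3 counts per library. Among subunits of RNase H2, which removes RNA from DNA, Rnaseh2a rose from 25.6 ± 0.0587 to 45.0 ± 2.35 CPM (adjusted p = 0.000531) and Rnaseh2b fell from 28.4 ± 2.40 to 12.0 ± 0.827 CPM (adjusted p = 0.000381). Zdhhc1, which aids STING, rose from 6.38 ± 0.946 to 12.7 ± 1.99 CPM (adjusted p = 0.00638).

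Interferon genes themselves were almost all silent. Of 21 listed, 14 were at 0 in every library and 2 could be tested. Ifnk, the type I interferon of keratinocytes, had no counts in mK3 and 2558, 1872 and 2148 in mK4, or 15.1 ± 3.30 CPM (SD, n = 3), at least 626-fold higher against the same floor (adjusted p = 0.00014, edgeR's quasi-likelihood test). Ifnb1, the interferon that cytosolic DNA induces, had at most 16 counts in a library and was not tested.

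The genes that carry the interferon signal from its receptors to the ISRE were also called in both directions. Of 19 receptor and signalling genes, 5 were higher, 6 lower and 8 not called, beside 20.8% higher and 19.5% lower over all genes tested, and the median log2 fold change was -0.08. Stat2 and Irf9, transcription factor genes of the type I response, fell. Stat2 went from 68.9 ± 10.3 to 26.3 ± 2.40 CPM (adjusted p = 0.000506, edgeR's quasi-likelihood test, n = 3) and Irf9 from 40.9 ± 1.52 to 19.4 ± 0.497 CPM (adjusted p = 0.00019). The receptor-bound kinase Jak1 fell from 124 ± 3.79 to 56.9 ± 4.01 CPM (adjusted p = 0.000138). The type I receptor genes Ifnar1 and Ifnar2 were not called. Socs3, an inhibitor of cytokine signalling, rose from 6.95 ± 0.550 to 18.8 ± 1.03 CPM (adjusted p = 0.000272), and Ifngr1, a subunit of the interferon-gamma receptor, from 35 ± 4.04 to 65.6 ± 9.11 CPM (0.00291). Ifnlr1, the lambda receptor, and Irf8 had no counts in mK3 and 8.71 ± 2.60 and 6.36 ± 2.53 CPM in mK4, at least 361-fold and 263-fold higher.

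Interferon-stimulated genes outside the family were mostly lower in mK4, with 24 of 28 lower, 2 higher and 2 not called, beside 19.5% lower and 20.8% higher over all genes tested, and a median log2 fold change of -1.19, against -1.09 for the Ifi200 members. Ifi44 fell from 250 ± 14.8 to 81.1 ± 3.63 CPM (adjusted p = 3.29e-05, edgeR's quasi-likelihood test, n = 3), and Trim30a, an inhibitor of inflammatory signalling, from 117 ± 3.59 to 14.4 ± 2.5 CPM (4.22e-05). The RNA sensor gene Ifih1 and the antiviral synthetase gene Oas2 also fell, by log2 fold changes of -2.29 for Ifih1 (SE 0.08) and -1.55 for Oas2 (SE 0.07). Ifit2 rose, with a log2 fold change of 0.66 (SE 0.08, adjusted p = 0.00136). Irgm1, an immunity-related GTPase, rose from 40.4 ± 4.38 to 53.1 ± 1.00 CPM (adjusted p = 0.0222), a call lost in 4 alternatives, those without mK3 replicate 2 or any 1 of the mK4 libraries (adjusted p from 0.00375 to 0.0704 over the alternatives). As the list was chosen with results of these data known, its direction is not independent evidence.

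The last list held genes of proteins that p202 and p204 are known to bind. Of 17 listed genes 15 were tested, 4 were higher, 2 lower and 9 not called, shares near the 20.8% and 19.5% of all genes tested, with a median log2 fold change of 0.12. Fos, a subunit of AP-1, rose from 1.21 ± 0.256 to 20.5 ± 3.80 CPM (adjusted p = 8.3e-05, edgeR's quasi-likelihood test, n = 3). The NF-kappaB subunit genes went in opposite directions, as Nfkb1 rose from 92.1 ± 9.34 to 148 ± 16.3 CPM (adjusted p = 0.00423) and Rela fell from 39.1 ± 4.14 to 17.1 ± 3.52 CPM (0.0029). Id3, an inhibitor of bHLH factors, fell from 23.4 ± 2.76 to 9.03 ± 1.48 CPM (adjusted p = 0.00126). Of the retinoblastoma family, Rbl2 rose from 102 ± 9.41 to 145 ± 6.03 CPM (adjusted p = 0.00516). Rb1 rose from 17.2 ± 0.323 to 22.7 ± 2.54 CPM (adjusted p = 0.0322, from 0.00513 to 0.0871 over the alternatives), a call lost with the replicate block and without any 1 of the mK3 libraries, mK4 replicate 1 or mK4 replicate 2.

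**Figure D5:**
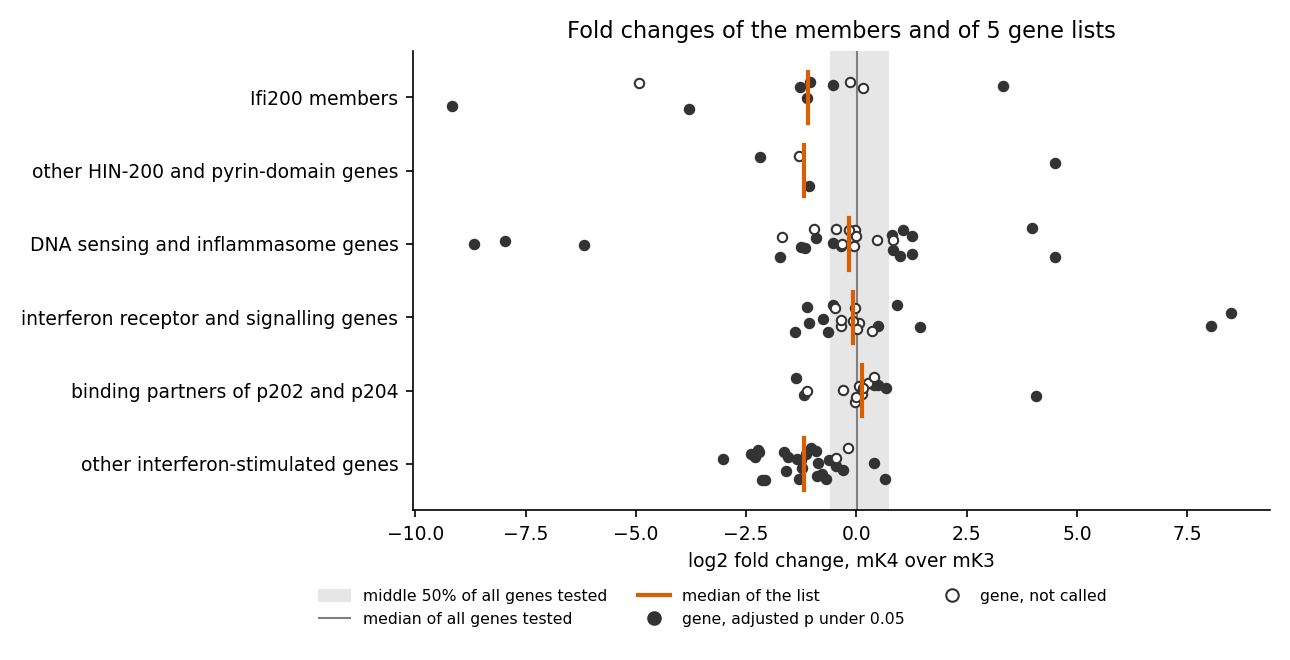
Log2 fold change, mK4 minus mK3, of every tested gene of 5 gene lists and of the 10 members (filled points, called; open points, not called; vertical marks, list medians; genes at 0 in every library of a line drawn at their bound). The interferon-stimulated genes have a median of -1.19 and the members one of -1.09, while the medians of DNA sensing and of interferon signalling are -0.16 and -0.08.

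Markers of leukocytes, in which Ifi200 genes are best known, were low, and some were at 0. Of 16 such markers, Adgre1, Itgam, Tyrobp and Vav1 were at 0 in every library, and Ptprc, which encodes CD45, was at 0.0302 ± 0.0522 and 0.0285 ± 0.0493 CPM (SD, n = 3). Their summed level was 2.38 to 3.94 CPM in mK3 and 6.85 to 8.79 CPM in mK4, and 2 of the 6 tested were higher in mK4, Cd79a and Coro1a, the latter not with the replicate block or without mK3 replicate 1, mK3 replicate 3 or mK4 replicate 3. The part of such cells in the members' levels was not tested. The 6 endothelial markers summed to 3.48 to 4.63 CPM in mK3 and 7.37 to 12.1 CPM in mK4, with Cdh5 higher and Kdr and Tek lower. Most of the mK4 sum was Cdh5, at 7.35 ± 0.402 CPM, and its top value also held Erg. Erg was at 4.32 CPM in mK4 replicate 2 and at 0 in every other library.

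For the 3 members with the highest mean CPM, the genes with the most similar profile over the 6 libraries were found among 11148 candidates, by the distance between mean-centred log2(CPM + 1) values. The profile nearest to Ifi202b was that of Rftn1, a lipid-raft protein gene, at a distance of 0.309, with 191, 196 and 217 CPM in mK3 and 0 in every mK4 library. Pi15, a peptidase inhibitor gene, followed at 0.355 with 229 ± 13.2 CPM and 0, and then Bgn, which encodes biglycan, at 0.457 with 335 ± 27.0 and 0.378 ± 0.0614 CPM. For Ifi204 they were Tsr1 at 0.106, Rab5a at 0.161 and Abca1 at 0.176. For Ifi203 they were Cd44, the hyaluronan receptor gene, at 0.078, F2r at 0.100 and Sugt1 at 0.112. With 6 libraries in 2 groups, these distances rest mainly on the difference between the lines.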

How the data were processed

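For 3 RNA libraries per line the authors deposited raw read counts as whole numbers, and 137559391 to 152952351 counts per library set the precision of low genes. Per the labels, ribosomal RNA was depleted and libraries were strand-specific. No source used here gives the strand setting of the counting. The submitters' processing notes name the build mm10 and the tools Bowtie2, STAR 2.7.10a, MACS3, HTSeq 2.0.2, deepTools, SAMtools and bedtools, without saying which made which file. The deposited peak lists give each peak's fold enrichment, a ratio, and its -log10 q as the authors' caller wrote them, read by the column order of the format.

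Here the 55558 Ensembl gene features were fitted with edgeR 4.0.16 (R 4.3.3, filterByExpr, TMM, robust quasi-likelihood test of mK4 against mK3), with Benjamini-Hochberg adjustment over the 20405 genes tested and a threshold of 0.05. CPM were computed from counts of genes after TMM scaling, and a floor of 3 counts per library bounded folds against 0. Alternatives were DESeq2 1.42.0, other scalings and filters, the replicate number as a block, and each library left out. A promoter peak overlaps the RefSeq window from 250 bases before to 50 after a start, and promoter pairs were aligned with Biopython 1.88.

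The members, gene lists and tests were chosen with earlier results of these data known. All members were named, with up to 4 called genes per list and direction by smallest adjusted p, Aim2, Cgas, Sting1, Irf9 and Ifnb1, genes within 500 kb with at least 100 counts, and 3 similar profiles for each of 3 members. Some genes that this rule names are not reported here. Floors cover counting error only, and miRNA and circular RNA rows were not used here.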

Additional observations from a re-analysis of the deposited data

How the results depend on the processing

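Of 116 alternative fold changes of the members, 111 stayed within 1 SD of the value given and 1 member, Ifi209, changed sign in any of them (log2 fold change from -0.48 to 0.74). As a description with no test, members past the threshold numbered 5 to 7 lower over 12 alternatives. They numbered 1 higher, except with a filter of at least 1 CPM in each of the 6 libraries. With that filter Ifi202b, Ifi208, Ifi209 and Ifi213 were not tested, and 5 members were lower and 0 higher. That filter also left 0 interferon genes called higher. Library totals without TMM moved the median of all genes by 0.106 on the log2 scale and the summed family level from -1.92 to -1.81 (from -1.98 to -1.85 without single libraries). The other family genes called lower, 2, became 1 with library totals and with the replicate block, and 1 to 2 when single libraries were left out. Other interferon-stimulated genes called higher were 1 to 2 when single libraries were left out. The replicate numbers did not pair the libraries, as the deviations of same-numbered libraries correlated at -0.0269, 0.0092 and 0.0088. With the replicate as a block, 3281 genes were called higher and 3129 lower in place of 4237 and 3988, 6 members were called lower and 1 higher, and the log2 fold change of Ifi208 was -6.66. With stricter peaks, a wider interval or a larger overlap, peak counts stayed within 1.5 times. Low counts limit Ifi208, Ifi209, Ifi213 and, in mK4, Ifi202b, which had 96, 48 and 96 counts there.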
